A study of Mus musculus with 2 samples.

Results

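The semaphorins, their plexin and neuropilin receptors, the ephrins and their Eph receptors were followed in ureters of mouse embryos. Genes were taken by symbol, as every semaphorin of classes 3 to 7, every plexin, both neuropilins, and every A- or B-type Eph receptor and ephrin named on the array. This gave 53 genes, measured by 70 probes, of 31870 genes or transcripts in all, and the brightest probe stood for a gene. Of these, 20 were semaphorins, 2 neuropilins, 9 plexins, 14 Eph receptors and 8 ephrins.

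Ureter RNA from E18.5 embryos (E counts days of development) of the NMRI strain was hybridised to 2-colour Agilent arrays, with RNA labelled Tbx2/Tbx3cDKO and control RNA on each. Labelled cDKO embryos carried Tbx18(cre/+) with Tbx2(fl/fl) and Tbx3(fl/fl). Controls were Tbx18(+/+), with at least 1 floxed allele of Tbx2 and of Tbx3. Floxed alleles were thus present in both groups, while Cre and the Tbx18 allele carrying it were in labelled cDKO only. What that allele or Cre does cannot be told apart here from the loss of Tbx2 and Tbx3. Cre expressed from the Tbx18 locus acts in the mesenchyme around the ureteric epithelium, so epithelial, vascular and nerve cells outside that lineage need not have lost either gene. Replicate 1 used male RNA with cDKO in red, and replicate 2 used female RNA with cDKO in green, so that sex, dye and replicate number cannot be told apart. Where a pair of ratios is given, the male array comes first. How many embryos were pooled per RNA is not given in the labels, and n = 2 arrays throughout. The p-values rest mostly on a variance pooled over all probes (1 residual and 13.9 prior degrees of freedom), not on a gene's own printed SD. They cover no spread beyond these arrays.

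Semaphorins are secreted or membrane-bound guidance cues. Secreted class 3 members mostly signal through a neuropilin, which binds the ligand, joined to a plexin, which signals into the cell, while membrane-bound classes bind plexins directly. Ephrins are ligands tethered to one cell that bind Eph receptor tyrosine kinases on its neighbour, and both sides can signal. These systems steer axons, blood vessels and the boundaries between tissue layers, and the ureter at this stage holds urothelium, smooth muscle, adventitial fibroblasts, vessels and nerves.

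The array does not show the loss of Tbx2 or Tbx3. Tbx2, Tbx3 and Tbx18 had mean log2 ratios of 0.74, 0.66 and 0.81 (limma adjusted p of 0.0273, 0.0305 and 0.00778), higher in the RNA labelled cDKO, and each call was lost both under median centring and with the processed signals. Which exons of Tbx2 and Tbx3 Cre removes is not given in the labels, and a probe outside them checks nothing. Tbx18 was not floxed, so its value does not bear on that loss. In the female array the Y-linked Ddx3y and Eif2s3y had processed signals of 359.6 and 491 in the RNA labelled cDKO while neither was well above background in its control, against 2851 and 5159 in the male cDKO RNA. Xist had processed signals of 1212 and 1146 in the female cDKO and control RNA. The RNAs of the female array thus differed in Y-linked signal, and the cause was not tested. Male and female below are the labels of the arrays. Every direction below is therefore that of the RNA labelled cDKO, and each result is given for both arrays. Gene spots were well above background in 72.1% to 81.6% of cases per channel.

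Most of the 53 genes were expressed and few differed. Only Epha6, an Eph receptor, was not well above background in any RNA, and the other 52 entered the test. Ephb4, Epha8, Efnb1 and Efnb3 were higher and Sema3e was lower in the RNA labelled cDKO (limma, Benjamini-Hochberg over all probes, threshold 0.05). These 5 calls are 9.62% of the 52 genes, where 4.45% of all 23409 genes tested were called. The 4 higher calls are 7.69% against a background of 2.19%, and the 1 lower call is 1.92% against 2.26%, near the background. The number of genes called moved with the scaling. It went from 4 higher and 1 lower to 1 higher and 0 lower with the processed signals, and to 0 of either under median centring. Calls among all 23409 genes fell too, from 512 higher and 530 lower. They were 135 and 210 with the processed signals, and 163 and 157 under median centring. Without any adjustment 16 of the 52 (30.8%) had p under 0.05 by limma, against 16% of all genes tested.

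The ratios were small. The median log2 ratio of the 52 genes was 0.16 (0.28 and 0.16 by array), beside 0.0046 for all genes tested. The means ran from -0.78 to 1.05. None of the 52 passed 2-fold on both arrays, where 0.41% of all genes did so upwards and 0.726% downwards. At 1.5-fold on both arrays, Ephb4 and Epha8 passed upwards, where 1.5% of all genes did, and Sema3e downwards, where 1.72% did.

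**Figure D1:**
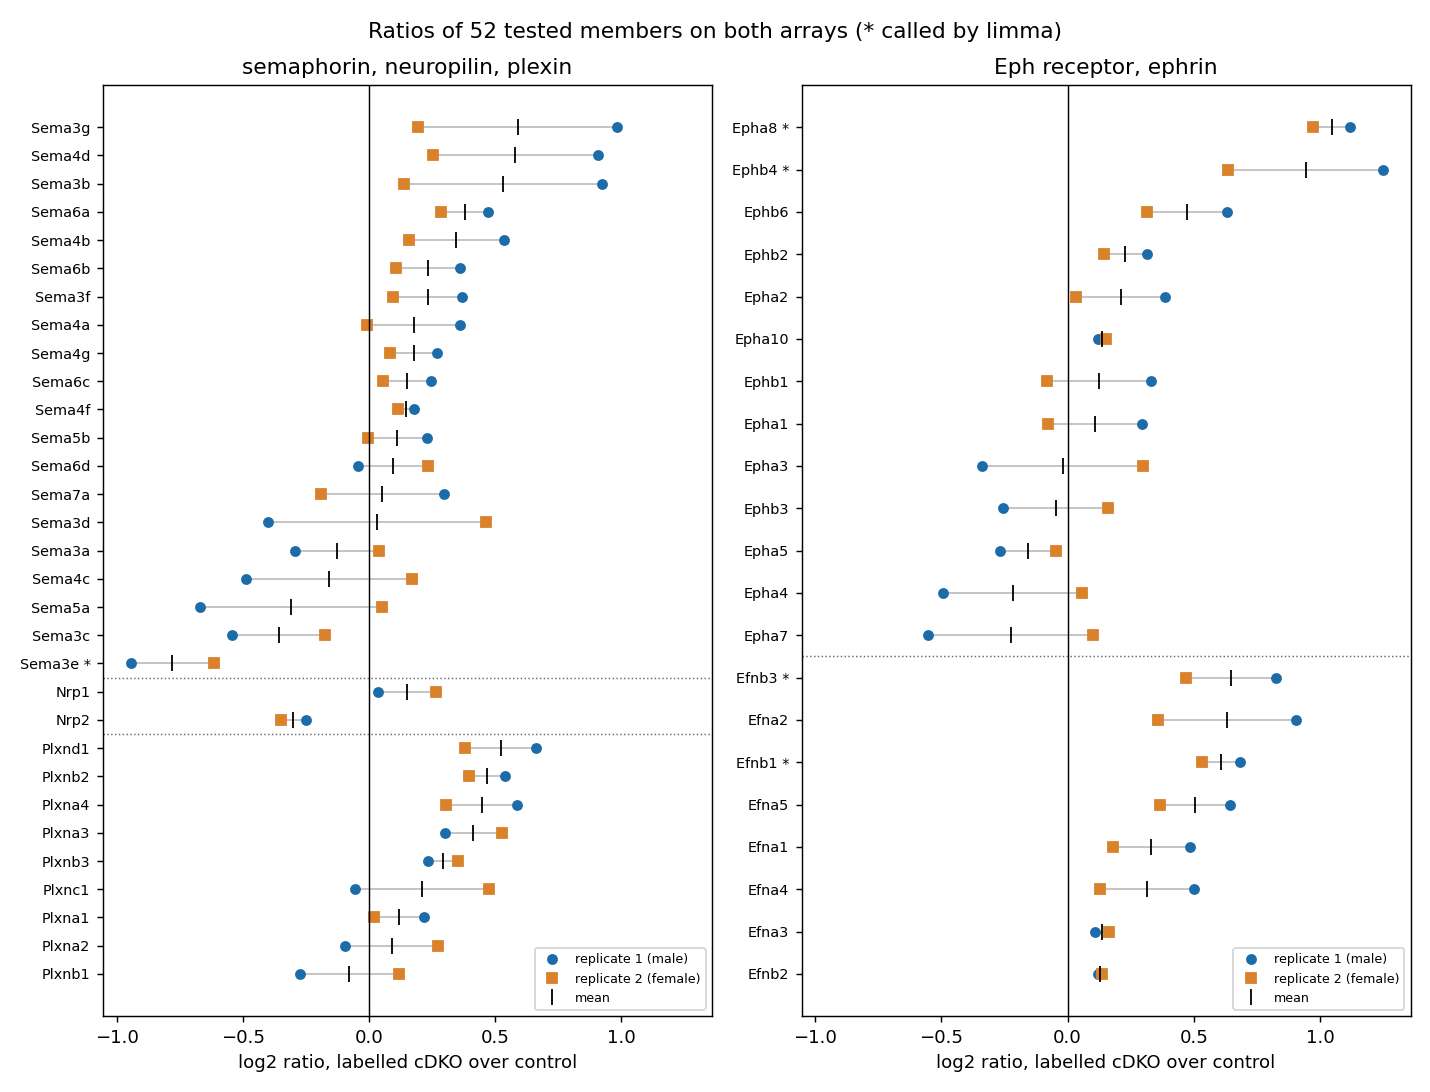
Log2 ratio of labelled cDKO over control (horizontal axis) for the 52 tested genes, grouped by family, with a circle for the male array, a square for the female array and a tick for their mean. All 8 ephrins lie to the right of 0 on both arrays, Sema3e lies farthest left at -0.78 and Epha8 farthest right at 1.05, and genes called by limma carry an asterisk.

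The probes behind the 5 calls are shown by their first 30 bases, as the array file gives them, because each value below is the brightness of one such oligonucleotide of 60 bases. Ephb4 is shown with its second probe, the only called gene that had another. All letters are in lower case because no part of them is singled out.
Ephb4 probe: gtcaacagaggcagacaacggtgcttggaa
Ephb4 second probe: atacgaggaaagttttgcagcggctggatt
Epha8 probe: tgtggttcccatcctgagtctggaatcact
Efnb1 probe: ttttggaccctcatgagacaatgctgttcc
Efnb3 probe: actggtctagctgatggcagttattagcac
Sema3e probe: cctccacccaatactgcacaaagtctgtat

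Positions are those of the files, on mm9. The probes of Ephb4 lie on chromosome 5 at 137815646 to 137815705 and 137813703 to 137813762, and that of Epha8 on chromosome 4 at 136485335 to 136485394. The Efnb1 probe lies on chromosome X at 96343505 to 96343564, the Efnb3 probe on chromosome 11 at 69367911 to 69367970 and the Sema3e probe on chromosome 5 at 14256598 to 14256656. Exon, intron and UTR annotation of mm9 was not used here.

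Among Eph receptors, Ephb4 and Epha8 rose, 15.4% of the 13 tested, against 2.19% of all genes called higher. Ephb4 encodes the receptor of ephrin-B2 and is known from veins, where it keeps venous and arterial cells apart. Its processed signals were 8375 (cDKO) and 3334 (control) for males, and 5301 and 3456 for females. The cDKO signal lay above its control on each array. The log2 ratios were 1.25 and 0.64, a mean of 0.94 ± 0.43 (SD, n = 2; 1.92-fold; limma adjusted p = 0.00535). The second Ephb4 probe gave 0.70 and 0.47 and missed the threshold (limma adjusted p = 0.0648). With the processed signals the mean ratio was 0.97 and the call was lost (limma adjusted p = 0.181).

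Epha8, a receptor best known from the developing nervous system, had the largest mean ratio of the 52 genes. Its signals were 171.4 (cDKO) and 46.0 (control) for males, and 125.4 and 48.6 for females. The cDKO signal was the higher on each array, and all 4 values were well above background. The log2 ratio was 1.05 ± 0.10 (SD, n = 2; 2.07-fold; limma adjusted p = 0.00103), from 1.12 and 0.97. The processed signals gave 1.63 (limma adjusted p = 0.0338). Under median centring it was 1.03 and the call was lost (limma adjusted p = 0.130).

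The other 11 tested Eph receptors were not called. Ephb6, a receptor without kinase activity, had the next highest mean at 0.47 ± 0.22 (SD, n = 2; limma adjusted p = 0.157). Epha2, an epithelial receptor, was at 0.21, and Ephb2 at 0.23. Epha1, an epithelial receptor too, was at 0.11 (0.30 and -0.078), and Ephb1 at 0.13 crossed 0 in the same way. Ephb3, another receptor of B-type ephrins, had signals of 6016 and 7003 in male and 5702 and 5207 in female cDKO and control RNA, so its ratios of -0.25 and 0.16 lay on opposite sides of 0.

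Of the 8 tested A-type receptors, Epha3, Epha4, Epha5 and Epha7 had ratios of -0.34, -0.49, -0.27 and -0.55 on the male array, and of 0.30, 0.057, -0.045 and 0.099 on the female array. None of these was called, and under median centring the mean of Epha5 turned to 0.023 and that of Epha3 to 0.10. Epha10, a receptor without kinase activity, had signals of 49.1 and 42.8 in male and 21.2 and 12.2 in female cDKO and control RNA, the last not well above background. Its mean ratio was 0.14.

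The ephrins leaned upwards as a family. All 8 had positive ratios on both arrays, where 31.7% of all genes tested did, and the family median was 0.42 (0.57 and 0.27 by array). Efnb1 and Efnb3 rose (25% of the 8, against 2.19% of all genes called higher) and the other 6 did not pass the test. Under median centring 7 of the 8 were positive on both arrays, and under the 10 other alternatives with a test all 8 were. Among those 10, changes of filter or variance model and Aquantile keep the reported ratios, so they could not differ. Offset 0 and the processed signals could, and gave family medians of 0.42 and 0.41. These ligands share the same 4 RNAs, so the count over genes is not a count of replicates.

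Efnb1 encodes ephrin-B1, a transmembrane ligand on the X chromosome. Its signals were 11049 and 7000 in male cDKO and control RNA, and 7943 and 5609 in the female RNAs. The cDKO signal exceeded its control on each array. The log2 ratio was 0.61 ± 0.11 (SD, n = 2; 1.52-fold; limma adjusted p = 0.0492), from 0.68 and 0.53. This call stands just inside the threshold and was lost in 5 of 11 alternatives, among them the processed signals (limma adjusted p = 0.294) and no filter (0.0644).

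Efnb3 encodes ephrin-B3, another transmembrane ligand and known from the nervous system. It had signals of 2326 and 1346 in male and of 1689 and 1229 in female cDKO and control RNA, again higher in cDKO on each array. The ratio was 0.65 ± 0.25 (SD, n = 2; 1.57-fold; limma adjusted p = 0.0414), with 0.82 and 0.47 on the arrays. It was lost in the same alternatives as Efnb1, with a limma adjusted p of 0.288 for the processed signals and 0.0668 without a filter.

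Efnb2, the third B-type ligand and the partner of Ephb4 on arterial cells, moved little. Its signals were 6111 and 5770 in male and 4143 and 3759 in female cDKO and control RNA, slightly higher in cDKO on each array. The ratio was 0.13 ± 0.011 (SD, n = 2; limma adjusted p = 0.808). The ligand was thus not called while its receptor Ephb4 was, and the difference between them was not tested.

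Among A-type ephrins, which are held to the membrane by a lipid anchor, Efna2 lay just outside the threshold. Its signals were 667.9 and 338.2 in male and 456.0 and 350.2 in female cDKO and control RNA. The ratio was 0.63 ± 0.39 (SD, n = 2; limma adjusted p = 0.0610), from 0.91 and 0.36. It passed with the filter on both channels, with the mean of a gene's probes and with robust eBayes (limma adjusted p of 0.0333, 0.0410 and 0.0345). Efna1, an endothelial and epithelial ligand, had signals of 8580 and 6293 in male and 5667 and 5017 in female cDKO and control RNA. Its ratio was 0.33 ± 0.22 (SD, n = 2; limma adjusted p = 0.367). Efna5 was at 0.50, Efna4 at 0.31 and Efna3 at 0.13.

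**Figure D2:**
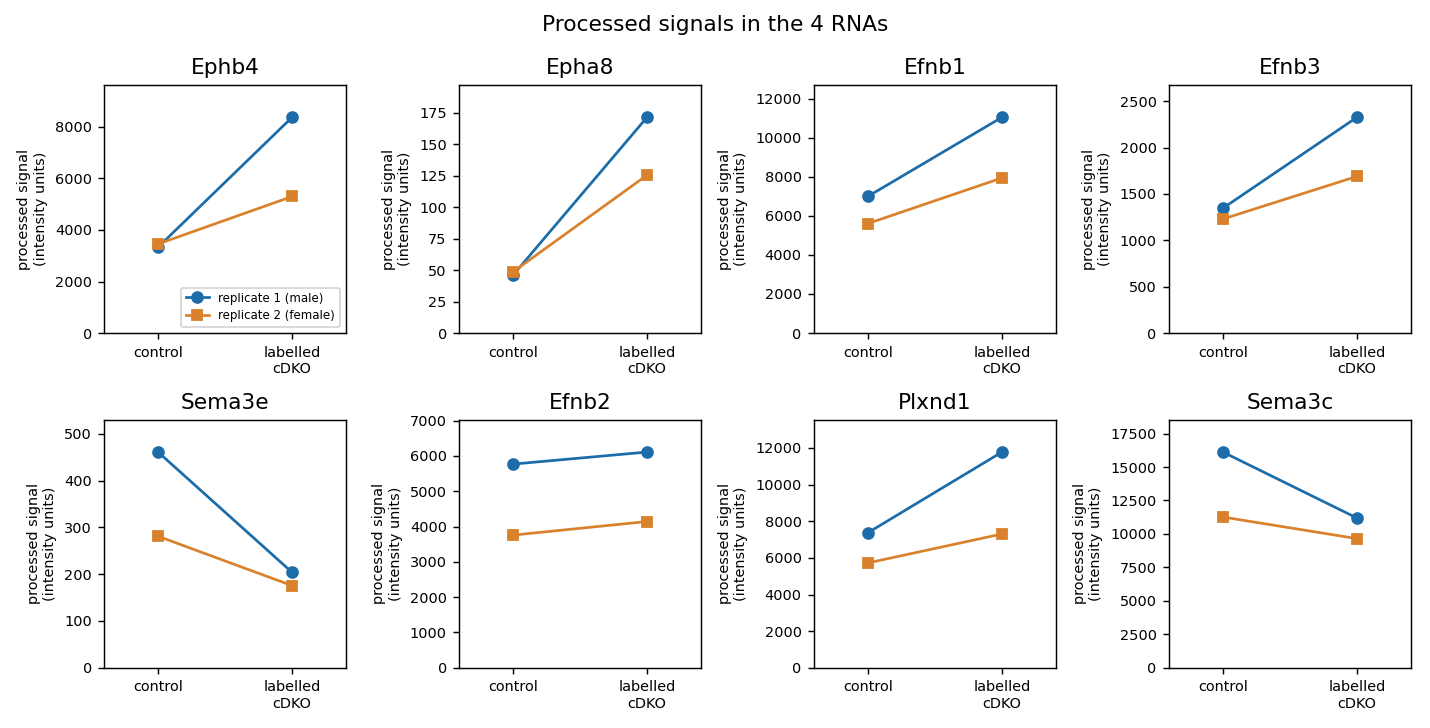
Processed signal (vertical axis, intensity units from 0) in control and labelled cDKO RNA, with lines joining the RNAs of one array, for the 5 called genes and for Efnb2, Plxnd1 and Sema3c. Ephb4, Epha8, Efnb1 and Efnb3 slope up and Sema3e slopes down on both arrays, while the Efnb2 lines are nearly level. Signals of different probes cannot be set against each other.

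Semaphorins had 1 call among 20 genes, and it was downward. That share of 5% is near the 4.45% of all genes called. Sema3e encodes a secreted class 3 semaphorin that binds plexin-D1 directly and repels vessels and axons. Its signals were 203.8 and 460.9 in male and 175.5 and 281.0 in female cDKO and control RNA. The cDKO signal was below its control on each array. The log2 ratio was -0.78 ± 0.23 (SD, n = 2; 1.72-fold lower; limma adjusted p = 0.0121), from -0.94 and -0.62. With the processed signals it was -0.93 and under median centring -0.71, and the call was lost in both (limma adjusted p of 0.149 and 0.780).

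Class 3 semaphorins divided by chromosome on the male array. Sema3a, Sema3c, Sema3d and Sema3e have probes on chromosome 5 within 4649 kb, and their ratios there ran from -0.94 to -0.29. The probes of Sema3b and Sema3f lie on chromosome 9 and that of Sema3g on chromosome 14, and these 3 ran from 0.37 to 0.98. On the female array the chromosome 5 genes ran from -0.62 to 0.46 and the other 3 from 0.096 to 0.20, so the ranges overlapped. Under median centring 3 of the 4 chromosome 5 genes were below 0 on the male array. The grouping was chosen after the values were seen, and Sema3e is the single call within it.

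Sema3c, which is known from outflow tract and vessel development, had signals of 11192 and 16121 in male and 9651 and 11266 in female cDKO and control RNA. The cDKO signal was the lower on each array, and the ratio was -0.36 ± 0.26 (SD, n = 2; limma adjusted p = 0.328). Its second probe gave -0.66 and -0.19, like the first in sign and order. Sema3a, the classic repellent of axons, was at -0.13, positive under median centring at 0.026. A second, dimmer Sema3a probe gave -0.52 and -0.19 and was not called. Sema3d had -0.40 and 0.46, from signals of 1036 and 1418 in male and 926 and 667 in female cDKO and control RNA. Sema3g, known from arterial endothelium, was at 0.98 and 0.20, Sema3b at 0.92 and 0.14 and Sema3f, a ligand of neuropilin-2, at 0.37 and 0.096, none of them called.

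Semaphorins of classes 4 to 7 are anchored in the membrane, and 0 of the 13 were called by limma at an adjusted p under 0.05, with 2 (15.4%) at an unadjusted p under 0.05, near the 16% of all genes. Their median was 0.15, with 7 positive and 0 negative on both arrays. Sema4d, a ligand of plexin-B1, had the largest mean, 0.58 ± 0.46 (SD, n = 2; limma adjusted p = 0.105), from 0.91 and 0.25. Sema6a, a ligand of A-type plexins, was at 0.38, and Sema4b at 0.35. Sema5a, which carries thrombospondin repeats, had signals of 9778 and 15325 in male RNA but 9629 and 9632 in female RNA, and so ratios of -0.67 and 0.052. Sema4c, a ligand of plexin-B2, behaved alike with -0.49 and 0.17, and Sema7a, which is held by a lipid anchor, was at 0.30 and -0.19.

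The receptors of the semaphorins had no call. Among 9 plexins 8 had a mean above 0, with a median of 0.29. Of the 9, 4 (44.4%) had an unadjusted p under 0.05, against 16% of all genes tested, but 0 passed by limma after adjustment. Plxnd1, the receptor of Sema3e on endothelial cells, had signals of 11778 and 7375 in male and 7305 and 5725 in female cDKO and control RNA. Its ratio was 0.52 ± 0.20 (SD, n = 2; limma adjusted p = 0.110), and its second probe gave 0.35 and 0.30. Plxnb2, a receptor of many epithelia, had signals of 28589 and 19927 in male and 21087 and 16032 in female RNA, with a ratio of 0.47 ± 0.10 (SD, n = 2; limma adjusted p = 0.149).

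With an intensity trend in the variance, Plxnd1, Plxnb2 and the ephrin Efna5 passed (limma adjusted p of 0.0226, 0.0394 and 0.0458). Plxna4 and Plxna3, which pair with neuropilins, were at 0.45 and 0.41, and Plxnb3 at 0.29. Plxnc1, the receptor of Sema7a, had ratios of -0.056 and 0.48, and Plxna2 crossed 0 likewise. A second, dimmer Plxnc1 probe gave 0.11 and 0.45 and was not called. Plxnb1 was at -0.078, and at 0.11 under median centring, where all 9 plexins had means above 0.

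The neuropilins, which also bind vascular endothelial growth factors, differed in sign. Nrp1 had signals of 3762 and 3528 in male and 2989 and 2504 in female cDKO and control RNA, a ratio of 0.15 ± 0.16 (SD, n = 2; limma adjusted p = 0.767). Nrp2 had signals of 4880 and 5712 in male and 3260 and 4146 in female RNA, a ratio of -0.30 ± 0.069 (SD, n = 2; limma adjusted p = 0.414). The second Nrp2 probe gave -0.44 and -0.32. Neither was called, and under median centring they were at 0.35 and -0.097.

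Ligand and receptor values can be read side by side. Sema3e at -0.78 stood with its receptor Plxnd1 at 0.52, and Efnb2 at 0.13 with its receptor Ephb4 at 0.94. Sema7a at 0.053 stood with Plxnc1 at 0.21, Sema4d at 0.58 with Plxnb1 at -0.078, Sema4c at -0.16 with Plxnb2 at 0.47, and Sema3f at 0.23 with Nrp2 at -0.30. These pairs were chosen after the values were seen, and they leave out the called genes Epha8, Efnb1 and Efnb3. None of the listed pairs had both members called, which says nothing about pairs not listed.

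**Figure D3:**
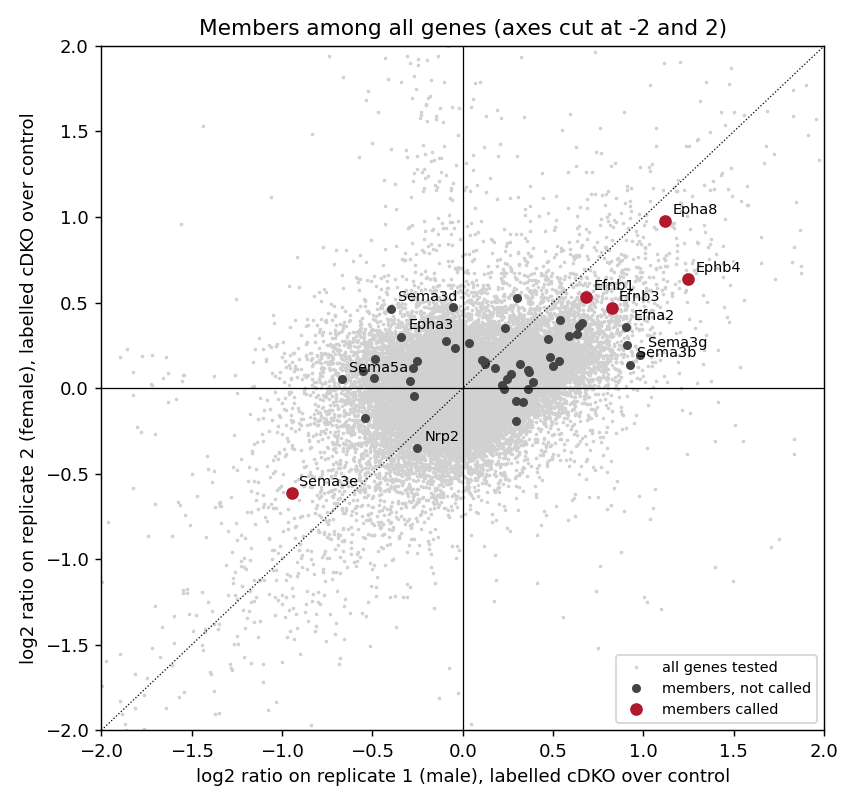
Log2 ratio of labelled cDKO over control on the male array (horizontal axis) against that on the female array (vertical axis), with all genes tested in grey, uncalled genes of the families in dark grey and called ones in red, shown between -2 and 2. Each red point has the same sign on both arrays, Ephb4 lies farthest of them from the dotted line of equal ratios at 1.25 and 0.64, and Sema3d and Epha3 lie in the upper left with opposite signs.

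Signs were shared by both arrays for most of these genes. Of the 52 genes, 31 had positive ratios on both arrays (59.6%, against 31.7% of all genes tested), 4 had negative ratios on both (7.69%, against 28.0%) and 17 had opposite signs (32.7%, against 40.3%). Of the 17, 12 were lower on the male and higher on the female array. The male ratio was the larger for 31 of the 52 genes (59.6%), against 53.9% of all genes tested. Several of these genes are neighbours in function and in the genome, and all were read from the same 4 RNAs.

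Second probes mostly pointed the same way. Of 15 further tested probes for 14 of the genes, 14 had the sign of the brightest probe, and 0 were called by limma, with 4 at an unadjusted p under 0.05. The exception was a dimmer probe of Epha7, at 0.12 and 0.33 against -0.55 and 0.099 for the brightest.

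Markers of several cell types moved in the same RNA, and their part in the ratios above was not tested. In bulk RNA, fewer cells of a type and less RNA per cell cannot be told apart. For the counts of these lists, 2.19% of all genes tested were called higher and 2.26% lower. An unadjusted p under 0.05 was seen for 16% of all genes, and for 30% of the urothelium list. Of the smooth muscle list 9 of 10 genes were lower, with a median of -2.64 and summed processed signals of 116394 and 71620 in cDKO against 611264 and 371388 in control RNA. Of the fibroblast and adventitia list 7 of 8 were higher, and its sums were 537974 and 468709 against 264063 and 234048. Of the nephron and kidney list 6 of 8 tested genes were higher, with sums of 9850 and 5007 against 2961 and 3508. The urothelium list had 0 of 10 called by limma (3 at an unadjusted p under 0.05) and a median of 0.19, with sums of 425348 and 345923 against 343838 and 283877.

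Markers of vessels, nerves, blood and cartilage were read as well. The shares called higher were 25% for endothelium, 14.3% for Schwann cells and glia, 16.7% for red blood cells and 40% for cartilage. Of all genes tested 2.19% were called higher. An unadjusted p under 0.05 was seen for 25% of the neuronal list and 100% of the red blood cell list, against 16% of all genes. Of 8 endothelial genes 2 were higher, Plvap at 0.97 and Cdh5 at 0.68, and the list had a median of 0.27 with sums of 48452 and 34219 in cDKO against 37743 and 27976 in control RNA. Cdh5 lost its call with offset 0, without a filter, under median centring and with the processed signals (limma adjusted p of 0.0733, 0.0763, 0.357 and 0.305). Plvap was at 0.52 with the mean of its probes and 1.01 with the processed signals, not called in either (limma adjusted p of 0.0819 and 0.131). The ratio of Ephb4, 1.25 and 0.64, can be set beside medians of 0.28 and 0.28 for this list by array. By the male array, its genes ran from 1.18 and 0.76 for Plvap to -0.15 and 0.30 for Tek. Of 7 tested Schwann and glial genes 1, Fabp7, was higher at 0.63, with sums of 15052 and 10727 against 12024 and 9321. Of 8 neuronal genes 0 were called by limma (2 at an unadjusted p under 0.05). Their sums of 7484 and 5259 in cDKO against 6485 and 6367 in control RNA were higher on the male and lower on the female array. Macrophage genes had 0 of 7 called by limma (0 at an unadjusted p under 0.05) and a median of -0.12. Of 6 red blood cell genes 1 was called higher, but all 6 had positive ratios on both arrays and an unadjusted p under 0.05 by limma. Their median was 0.53, with sums of 300022 and 238753 in cDKO against 182465 and 173152 in control RNA. Of 5 tested cartilage genes 2 were higher, with a median of 0.16 and sums of 12755 and 8187 against 6063 and 5533.

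Partners and effectors of these receptors held few calls. Of 32 tested partners of semaphorins and plexins 1 was lower and 0 were higher (3.12% called, against 4.45% of all genes), with a median of 0.12. Without adjustment 12 of the 32 (37.5%) had p under 0.05, against 16% of all genes. The lower one was Cd72, a B cell receptor for a class 4 semaphorin, at -0.77 ± 0.13 (SD, n = 2; limma adjusted p = 0.0115). Its ratio was -1.40 with the processed signals, and the call was lost under median centring (limma adjusted p = 0.482). Of 33 tested partners of Eph receptors and ephrins 1 was higher and 0 were lower (3.03% called), with a median of 0.074 and 7 (21.2%) at an unadjusted p under 0.05. The higher one was Chn2, a GTPase-activating protein for Rac, at 0.78 ± 0.21 (SD, n = 2; limma adjusted p = 0.0115), whose call was lost both under median centring and with the processed signals.

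Other guidance families had 3 higher and 1 lower of 21 tested genes (14.3% and 4.76%, against 2.19% and 2.26% of all genes), with a median of 0.26. Without adjustment 11 of the 21 (52.4%) had p under 0.05, against 16% of all genes. Slit2, a secreted repellent, rose by 0.92 ± 0.015 (SD, n = 2; limma adjusted p = 0.00283) and its receptor Robo2 by 0.90 ± 0.14 (SD, n = 2; limma adjusted p = 0.00376). Flrt1, a membrane protein that binds Unc5 receptors, was at 0.69 and Rgmb, a ligand of neogenin and a BMP co-receptor, at -0.64. These 4 calls disappeared under median centring and with the processed signals.

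Promoters of the families' genes were searched for the half-site bound by T-box factors, since the alleles concern TBX2 and TBX3. The motif AGGTGTGA and its core GTGTGA, which lies within it, were looked for on both strands in the 250 bases before each start (RefSeq, GRCm38.p6). The table held 61 such windows for 47 of the 53 genes, and Efnb3, a called gene, was not among them. The full motif was in 0 of the 61 windows and in 1.12% of all 32851 windows. The core was in 6 windows (9.84%), those of Efna1, Efna3, Epha5, Nrp2, Sema6c and Sema6d, and in 12.3% of all windows. None of these 6 was called.

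The windows of Ephb4, Epha8, Efnb1 and Sema3e are shown because these are the called genes with a window. No core lies in them, so no letter is a capital. They are chr5:137349859-137350108 on the plus strand for Ephb4, chr4:136956817-136957066 on the minus strand for Epha8, chrX:99135811-99136060 on the plus strand for Efnb1 and chr5:14025026-14025275 on the plus strand for Sema3e. The G and C content was 84.0% for Epha8 with 46 CpG pairs, 64.0% with 12 for Ephb4, 60.0% with 13 for Efnb1 and 48.0% with 7 for Sema3e.
Ephb4 promoter: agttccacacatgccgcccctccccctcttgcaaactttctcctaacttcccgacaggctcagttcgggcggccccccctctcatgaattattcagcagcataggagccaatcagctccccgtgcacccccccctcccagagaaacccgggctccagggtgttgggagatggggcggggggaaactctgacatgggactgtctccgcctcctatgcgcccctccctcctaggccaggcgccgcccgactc
Epha8 promoter: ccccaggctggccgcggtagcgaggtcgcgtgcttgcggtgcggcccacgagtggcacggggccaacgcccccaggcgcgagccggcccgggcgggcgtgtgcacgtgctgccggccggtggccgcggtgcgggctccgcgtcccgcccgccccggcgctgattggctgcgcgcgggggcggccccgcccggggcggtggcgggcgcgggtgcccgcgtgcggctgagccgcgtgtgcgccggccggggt
Efnb1 promoter: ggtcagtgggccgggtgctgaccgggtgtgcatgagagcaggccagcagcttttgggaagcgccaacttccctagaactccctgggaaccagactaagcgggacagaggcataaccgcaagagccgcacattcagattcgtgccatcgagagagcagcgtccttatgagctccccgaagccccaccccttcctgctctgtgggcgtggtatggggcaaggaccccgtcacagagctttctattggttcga
Sema3e promoter: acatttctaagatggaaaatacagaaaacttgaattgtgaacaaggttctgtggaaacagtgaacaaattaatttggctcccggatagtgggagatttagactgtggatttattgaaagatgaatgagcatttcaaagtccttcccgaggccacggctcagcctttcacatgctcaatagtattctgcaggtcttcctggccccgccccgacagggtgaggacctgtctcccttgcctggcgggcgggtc

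**Figure D4:**
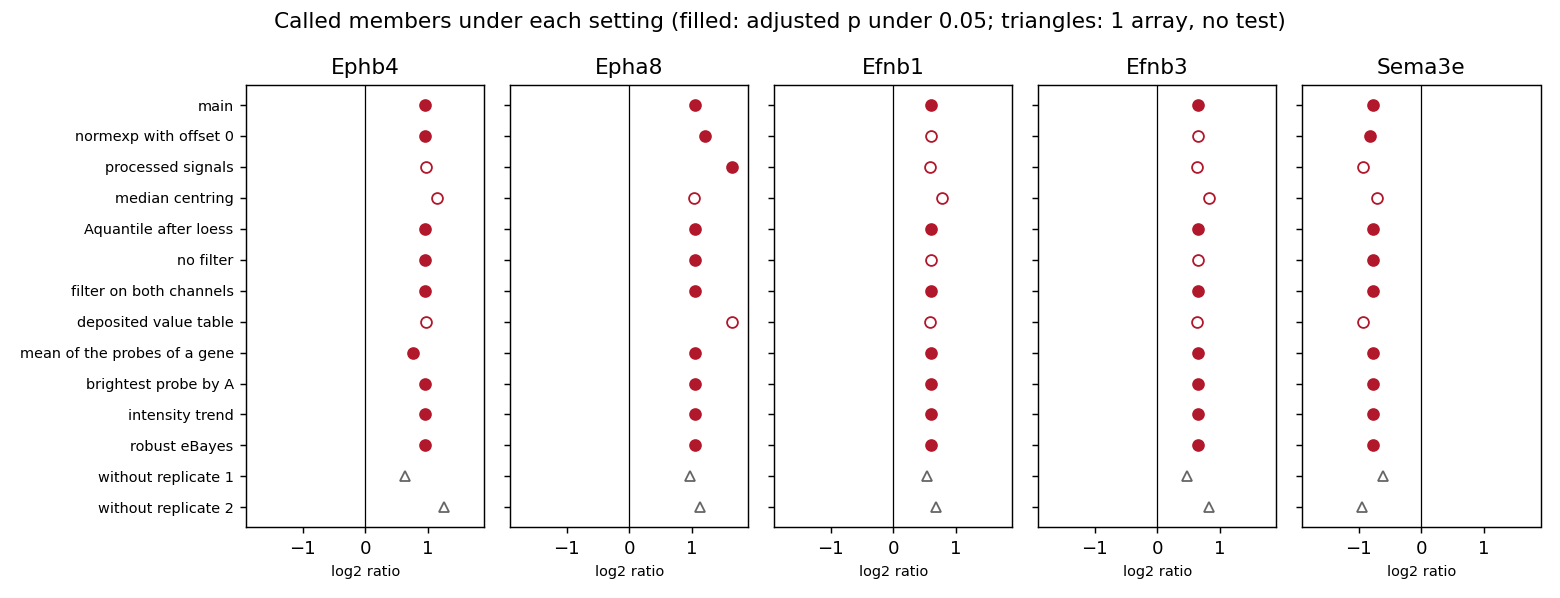
Mean log2 ratio of labelled cDKO over control (horizontal axis) for the 5 called genes under the reported setting and each alternative (vertical axis), with filled circles where limma's adjusted p was under 0.05, open circles where it was not, and triangles for 1 array alone, which has no test. The direction was the same throughout, though settings that change only the filter or the variance model keep the reported ratio. All 5 circles are open under median centring and in the deposited value table.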

How the data were processed

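RNA of 4 ureter samples was read on 2 Agilent arrays, quantified by the authors with Agilent Feature Extraction 10.7.3.1, per the file headers. The deposited mean and background intensity values are raw, and the deposited processed signal intensities were background-subtracted and dye-normalized. The deposited log10 ratio is red over green and, like the deposited 0 or 1 flags, served for checks and filters. A further score, a signed fold, stands in the authors' deposited values per probe, with column medians of 1 and 1. Set against the processed signals its sign ran as cDKO over control, while its floor and centring remain unknown.

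Intensities were corrected with normexp (offset 50) and loess (limma 3.58.1, R 4.3.3). Control and outlier spots (272 and 226) had weight 0. Probes well above background in either RNA group on both arrays were kept (29274). Ratios were oriented as cDKO over control by the labelled dyes, and the mean was tested against 0 with limma (1 residual and 13.9 prior degrees of freedom). The brightest probe by processed signals stood for a gene. The code was tested on simulated data. Members given in full were those called, those 2-fold changed on both arrays, those at opposite signs and at least 1.5-fold on each array, and the 2 with the largest signals in each family. Further values (Efna2, Efnb2, Sema4d, Epha3, Sema3d, Epha10 and the ligand and receptor pairs) were chosen after they were seen. Members and lists were chosen with earlier results of these data known, so no test over a list was made. The alternatives changed background correction, normalization, filter, probe choice, variance model, thresholds and arrays used. Symbols came from RefSeq accessions for 26412 probes and from the file for 13017. Peptide sequences were not used here.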

Additional observations from a re-analysis of the deposited data

Results flagged for a closer look

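Sema3d and Epha3 moved in opposite directions on the arrays, with a log2 ratio of at least 0.3 in size on each. Sema3d had -0.40 for males against 0.46 for females, and Epha3 had -0.34 against 0.30. The difference was not tested, because each sex has 1 array, and sex and dye cannot be told apart. The minimum of 0.3 was chosen after the values were seen.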

How the results depend on the processing

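The direction of the 5 called genes was the same in all 11 alternatives with a test. Changes of filter or variance model keep the reported ratios, so the direction could not change there. Choosing the brightest probe by average intensity left the family medians unchanged, and the deposited values gave the same family medians as the processed signals. Epha8 kept its call in 9 of them, Ephb4 and Sema3e in 8, and Efnb1 and Efnb3 in 6. The reported setting called 4 members higher and 1 lower, beside 512 and 530 of all 23409 genes. Normexp with offset 0 called 2 members higher (437 of all genes), and no filter 2 higher (397 of 31803). The processed signals called 1 higher and 0 lower (135 and 210 of all genes), and median centring 0 and 0 (163 and 157). The authors' deposited values likewise gave 0 and 0 (limma called 0 of 23409 genes there). An intensity trend called 7 higher (934 of all genes). An adjusted p under 0.01 called 2 higher and 0 lower. The median of 0.16 was 0.31 under median centring, 0.16 without replicate 1 and 0.28 without replicate 2. In place of 0 members at 2-fold or more on both arrays, 1 was higher with offset 0, the processed signals, median centring and the deposited value table. With 1 array alone, 0 were 2-fold higher without replicate 1 and 2 without replicate 2, and at 1.5-fold on both arrays 2 were higher and 1 lower. Aquantile alters only the average intensity, so ratios stayed the same by construction. The causes of the other changes were not tested. No paired analysis was possible because each array is already a ratio of both groups and there is 1 group of ratios. The number of arrays limits the precision.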
